A study of Mus musculus with 4 samples.

Results

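Nuclear receptors are transcription factors whose activity is set by small molecules such as bile acids, oxysterols, fatty acids, retinoids and steroid or thyroid hormones. The transcripts of 44 nuclear receptor genes were compared between fetal hepatoblasts, the bipotent precursors of liver parenchyma, and adult hepatocytes. A gene was a member if a non-control probe of the array carried its name, and all of its probes were taken. This gave 72 probes for the 44 genes, of 30038 gene names on the array. The receptor gene Hnf4a was not among the members. The study measured RNA of liver hepatoblasts at embryonic day 13 (E13, n = 2) and of liver hepatocytes taken at 8 weeks of age (n = 2), each sample on its own one-colour Agilent array. All mice were C57BL/6NCr, with no genetic change or treatment named in the labels, which also give no sex, time of day or isolation method. Whether samples of one group are from different animals is not stated either, so the p-values cover only the spread from sample to sample, which may be technical.

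A nuclear receptor typically holds a DNA-binding domain that reads hexamers related to AGGTCA and a ligand-binding domain that exchanges corepressors for coactivators when a ligand enters. In the liver, many receptors bind DNA as pairs with a retinoid X receptor (RXR) and set the rates of bile acid, lipid, drug and glucose metabolism. Other members bind as homodimers or monomers, and NR0B members lack the usual DNA-binding domain and act on other receptors.

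Values are log2 processed signals after subtraction of the array's 75th percentile, so 0 is a signal at that percentile, and a log2 fold is the adult mean minus the E13 mean, with its standard error (SE). A gene was read from its brightest probe among those well above background on both arrays of either group, and was called where the adjusted p of limma over all genes was under 0.05. Signals of different genes come from different probes, so levels were not ranked between genes. The arrays held 19299 to 23773 probes above background, of 41174, and none was saturated. Values correlated over the genes tested, each read from its brightest probe, at r = 0.991 within E13, 0.989 within adult and 0.727 to 0.742 between the groups. Hepatoblast markers were higher in E13 for 8 of 11 tested, and hepatocyte markers were higher in adult cells for 11 of 11. Of all genes tested, 32.1% were called higher in adult and 32.8% in E13. Markers of other cells differed too. Stellate and mesenchymal markers were higher in E13 for 12 of 13 tested, with summed linear signals (in units of the array's 75th percentile) of 112 and 77.5 against 14.2 and 14.8 on the adult arrays. Macrophage markers were higher in adult cells for 10 of 12 tested, with sums of 2.42 and 1.16 in E13 and 21.8 and 18 in adult. Of these, Mpeg1 read -2.80 and -3.56 in E13 and 3.72 and 3.38 in adult, and Vsig4 was not above background on either E13 array. Erythroid markers were higher in E13 for 6 of 11 tested and in adult for 1, with sums of 200 and 49.3 in E13 and 29.6 and 22.9 in adult. Megakaryocyte and leukocyte markers were higher in E13 for 6 of 10, endothelial markers in adult for 5 of 12 and bile duct markers in adult for 2 of 7, with 1 marker of each list called the other way. In bulk RNA, fewer cells of a type and less RNA per cell cannot be told apart, and the part of these other cells in the receptor differences was not tested. When arrays were scaled to 8 spike-in probes, the median log2 fold of all genes moved from -0.01 to -1.25, and all directions below are relative to the 75th percentile.

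Of the 44 receptors, 34 could be tested, and 18 were higher in adult hepatocytes (52.9%), beside 32.1% of all 16421 genes tested. 2 were higher in E13, Nr6a1 and Nr4a2 (5.88%, beside 32.8% of all genes), and 14 passed the test in neither direction, where 64.8% of all genes were called in one or the other. The median log2 fold was 0.84 over the tested receptors and -0.01 over all genes. Among the receptors called higher in adult cells, 14 differed at least 2-fold (22.5% of all genes did so) and of those called higher in E13 only Nr6a1 did (23.7% of all genes). The 2 groups did not overlap for 30 of the 34 receptors, as for 85.8% of all genes. Of the 34, 28 were above background on all arrays. The other 6 passed the filter through 1 group: Rxrg, Esr1 and Nr1d1 through the adult arrays, of which Esr1 alone was called while above background on neither E13 array (as were 2.69% of all genes), and Rara, Hnf4g and Nr4a2 through the E13 arrays. With spike-in scaling, 10 receptors were called higher in adult hepatocytes and 14 in E13.

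**Figure D1:**
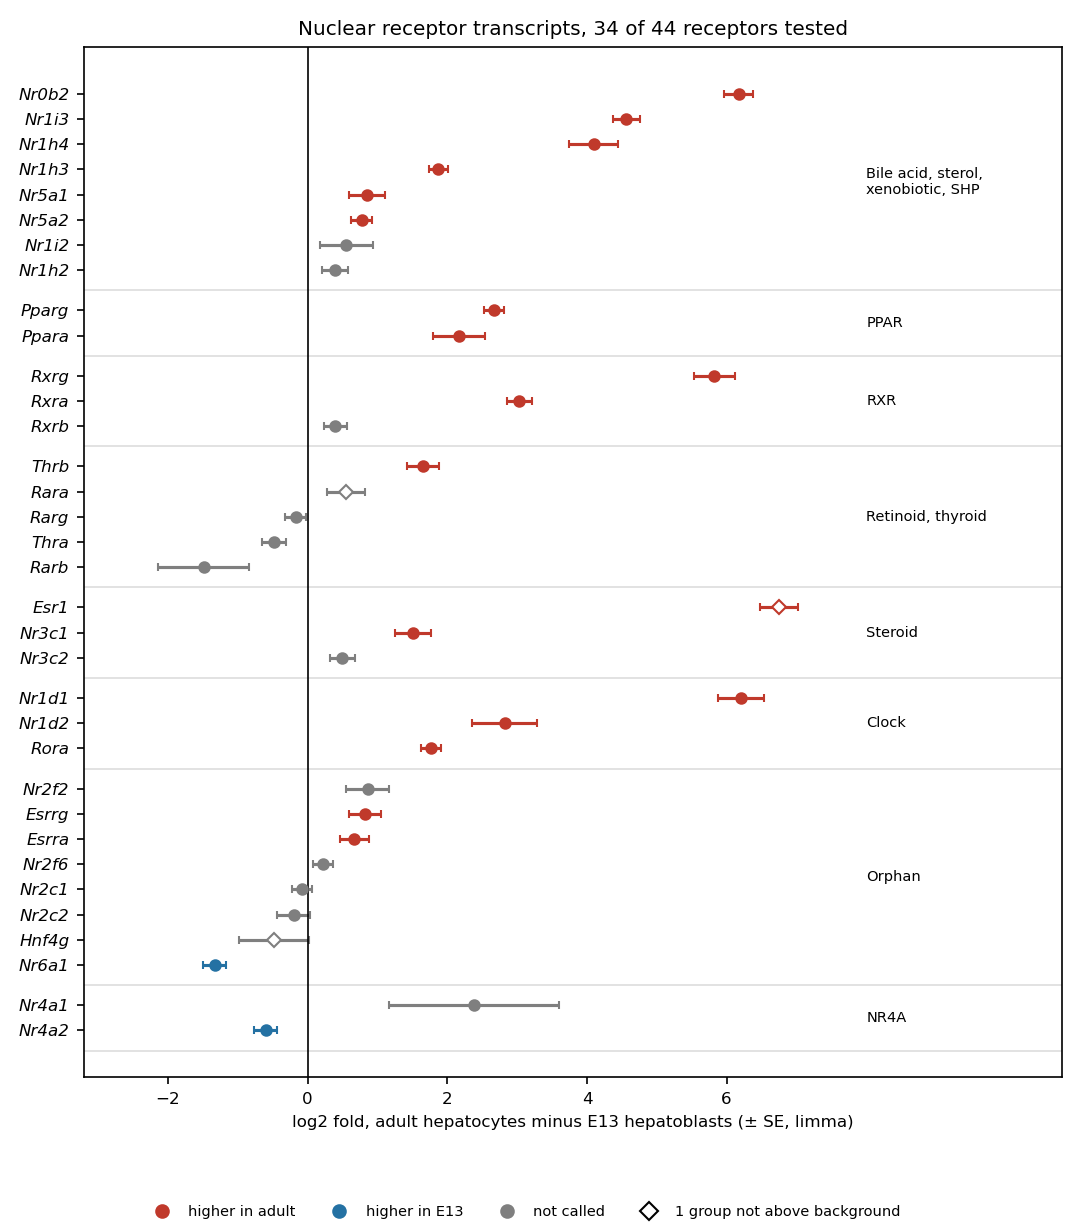
Log2 fold of each tested receptor (horizontal axis, adult minus E13, bars ± SE from limma, n = 2 per group), grouped by role. Red points were called higher in adult hepatocytes, blue points higher in E13 hepatoblasts and grey points in neither; open diamonds mark Esr1, Rara and Hnf4g, not above background on either array of 1 group, whose fitted values are no measured differences. Of the 34 receptors shown, 18 lie on the adult side as called and 2 on the E13 side, and the receptors called between 4.09 and 6.75 are Nr1h4, Nr1i3, Rxrg, Nr0b2, Nr1d1 and Esr1.

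The bile acid sensor Nr1h4 and its partners Nr0b2 and Nr5a2 were higher in adult hepatocytes. Nr1h4 encodes FXR, the receptor that senses bile acids. Its signal was 0.78 and -0.16 in E13 and 4.26 and 4.55 in adult. Both adult arrays lay far above both E13 arrays, a log2 fold of 4.09 ± 0.35 (17.1-fold, adjusted p = 8.95e-04). Nr0b2 encodes SHP, an atypical receptor without a DNA-binding domain that FXR induces and that represses bile acid synthesis. Nr0b2 read -4.20 and -4.12 in E13 and 2.25 and 1.78 in adult, 72.2-fold higher (log2 fold 6.17 ± 0.21, adjusted p = 9.03e-05), and was above background on all arrays. The E13 signals lay near the lowest signals above background on those arrays, -4.749 and -4.435. Normexp background correction gave a smaller log2 fold of 4.32, and 4.01 with quantile normalization added. Nr5a2 encodes LRH-1, which activates bile acid synthesis genes and is held in check by SHP. Nr5a2 rose less, from 2.55 and 2.71 to 3.39 and 3.42 (log2 fold 0.78 ± 0.15, adjusted p = 0.0099); the call was lost without E13 replicate 1 (0.70, adjusted p = 0.0685) and the sign turned with spike-in scaling (-0.46). Nr5a1, the steroidogenic factor of adrenal and gonad, was dim on every array, at -3.92 and -3.28 in E13 and -2.72 and -2.78 in adult. Its adjusted p was 0.0383 for a log2 fold of 0.85 ± 0.25, which passed 0.05 in none of the fits without E13 replicate 1 or either adult replicate (0.0985 to 0.123) and turned to -0.39 with spike-in scaling. Nr0b1 (DAX1), the other NR0B receptor, was above background on no array.

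Of the genes of bile acid synthesis and transport linked to FXR and SHP, 13 of 15 tested were higher in adult cells and 1 in E13, with a median log2 fold of 5.51. Cyp7b1, an oxysterol hydroxylase of the alternative bile acid pathway, was higher by 9.58 and Slco1b2, a hepatic organic anion carrier, by 8.92. Klb, the co-receptor through which gut FGF signals to liver, was higher in E13 (log2 fold -1.11, adjusted p = 0.0111), and Fgfr4, the kinase that Klb serves, passed the test in neither direction (0.10, adjusted p = 0.557). All pathway lists were written with earlier results of these arrays known, so their counts are descriptions. Each such count is to be read beside the 32.1% of all genes higher in adult and 32.8% higher in E13.

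The xenobiotic receptors divided. Nr1i3 encodes CAR, which induces drug-metabolising enzymes after exposure to foreign compounds. Nr1i3 was at -2.15 and -2.45 in E13 and at 2.11 and 2.41 in adult, 23.7-fold higher (log2 fold 4.56 ± 0.20, adjusted p = 1.48e-04), and both adult arrays lay above both E13 arrays. Nr1i2 encodes PXR, the related receptor with a broad range of drug and steroid ligands. Nr1i2 read 1.47 and 1.39 in E13 and 1.45 and 2.52 in adult. One adult array was level with E13 and the other above it, so the groups overlapped, and the log2 fold of 0.55 ± 0.38 was not called (adjusted p = 0.255). Without adult replicate 1 it was 1.09 (adjusted p = 0.0113), without adult replicate 2 0.020 (adjusted p = 0.921), and with spike-in scaling -0.68. All 18 tested targets of CAR and PXR were higher in adult hepatocytes, with a median of 5.67. Among them were Aldh1a1, an aldehyde dehydrogenase (10.23), and Cyp2a4, a steroid hydroxylase (9.76).

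Promoters differed in how many CpG dinucleotides they held. RefSeq windows of the 250 bases before a gene's start (GRCm38.p6) were found for 40 of the 44 receptors, 60 windows in all. The median was 11 CpG over these windows and 6 over 32851 windows of all genes. Nr0b2 had 3 CpG and Nr1i3 had 2, while Nr2f6, an orphan receptor described below with almost equal signal in the groups, had 42, more than 99.1% of all windows. The 150 bases next to the start of these 3 genes, picked with their values known, are shown with each CG in capitals. They set the CpG-poor promoters of Nr0b2 and Nr1i3 beside the CpG-rich one. They lie at chr4:133553226-133553375 on the plus strand for Nr0b2, chr1:171213820-171213969 on the plus strand for Nr1i3 and chr8:71381953-71382102 on the minus strand for Nr2f6.
Nr0b2: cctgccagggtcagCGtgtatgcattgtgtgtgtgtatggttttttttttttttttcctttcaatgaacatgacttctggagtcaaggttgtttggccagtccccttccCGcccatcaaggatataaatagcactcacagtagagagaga
Nr1i3: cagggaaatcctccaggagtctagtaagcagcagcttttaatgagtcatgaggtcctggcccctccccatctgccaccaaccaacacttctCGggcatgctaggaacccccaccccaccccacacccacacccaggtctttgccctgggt
Nr2f6: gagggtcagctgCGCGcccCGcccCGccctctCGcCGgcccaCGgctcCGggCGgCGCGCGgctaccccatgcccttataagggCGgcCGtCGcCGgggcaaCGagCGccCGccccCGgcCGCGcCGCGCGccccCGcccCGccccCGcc
CpG number did not sort the receptors by call in general: Rxra, called higher in adult, had 1 window with 40 CpG and another with 1. Ppara, also called higher in adult, had 27, and Nr1h4 had 5. The uncalled Nr1i2 and Nr2f2 had 2 and 1.

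The oxysterol receptors control cholesterol efflux and fatty acid synthesis. Nr1h3, which encodes LXR alpha, was at 2.51 and 2.42 in E13 and 4.32 and 4.37 in adult. The arrays within each group were nearly level, and the log2 fold of 1.87 ± 0.14 was called (3.67-fold, adjusted p = 6.19e-04). Nr1h2, which encodes the ubiquitous LXR beta, read 1.16 and 1.40 in E13 and 1.82 and 1.54 in adult. Its groups did not overlap, but the log2 fold of 0.40 ± 0.18 did not pass the test (adjusted p = 0.119) and was -0.84 with spike-in scaling. Macrophages express Nr1h3 too, and the macrophage marker sums given above moved the same way. Of 14 LXR targets, 7 were higher in adult cells (Nr1h3 itself being 1 of them), 1 was higher in E13 and 6 passed in neither direction, with a median of 1.49. Abcg5 and Abcg8, whose products form the pump that moves sterols into bile, were higher in adult by 7.63 and 5.77. Lpl, the lipase of muscle, fat and macrophages, was higher in E13 by a log2 fold of -4.52, and Mylip, a ligase that degrades the LDL receptor, was not called (1.11, adjusted p = 0.108).

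The fatty acid receptors Ppara and Pparg were both higher in adult cells. Ppara, which drives fatty acid oxidation in the fasted liver, read 2.83 and 2.48 in E13 and 4.34 and 5.31 in adult. Adult replicate 2 stood above adult replicate 1, and both above E13, for a log2 fold of 2.17 ± 0.37 (4.50-fold, adjusted p = 0.00689). With spike-in scaling the log2 fold was 0.94 (adjusted p = 0.0541). Pparg, the adipocyte receptor that is normally low in liver, read -1.23 and -1.29 in E13 and 1.37 and 1.44 in adult. Its replicates were almost level and its log2 fold was 2.67 ± 0.14 (6.35-fold, adjusted p = 2.44e-04); it too is expressed by macrophages. Ppard, the third member of the family, was above background on adult replicate 1 alone, where it read -1.10 against -4.62 on adult replicate 2, and was not tested.

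Targets of PPAR alpha were higher in adult cells for 21 of 27 tested and in E13 for 2, with a median of 1.74. Cyp4a14, a fatty acid omega-hydroxylase, was at least 1227-fold higher in adult, since neither E13 array was above background. A bound of this kind takes, on each array of the dim group, the higher of the gene's own signal and the lowest signal above background. It holds for that floor and this background handling only. Hnf4g, for example, read -3.33 on adult replicate 1 without being above background, while the floor there was -3.50. Cyp4a12a, a relative, was higher by 9.97. The acyl-CoA thioesterases Acot3 (at least 4.71-fold) and Acot1 (log2 fold -2.42) were higher in E13, and Hadhb, a subunit of the mitochondrial trifunctional protein, was not called (0.39, adjusted p = 0.0959).

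RXR proteins are the shared dimer partners of FXR, LXR, CAR, PXR, PPAR, thyroid and retinoic acid receptors. Rxra, the main form of liver, was at 3.87 and 3.81 in E13 and 6.70 and 7.05 in adult. Every adult array exceeded every E13 array, with a log2 fold of 3.03 ± 0.18 (8.18-fold, adjusted p = 3.36e-04), and a second Rxra probe gave 2.38. Rxrg, best known from muscle and brain, read -4.89 and -4.22 in E13, where 1 of the 2 arrays was above background, and 1.07 and 1.47 in adult. The fitted log2 fold was 5.82 ± 0.30 (adjusted p = 2.14e-04). Rxrb, expressed in most tissues, differed little, from 1.53 and 1.76 in E13 to 2.11 and 1.97 in adult. Its log2 fold of 0.40 ± 0.16 was not called (adjusted p = 0.0915) and was -0.84 with spike-in scaling.

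**Figure D2:**
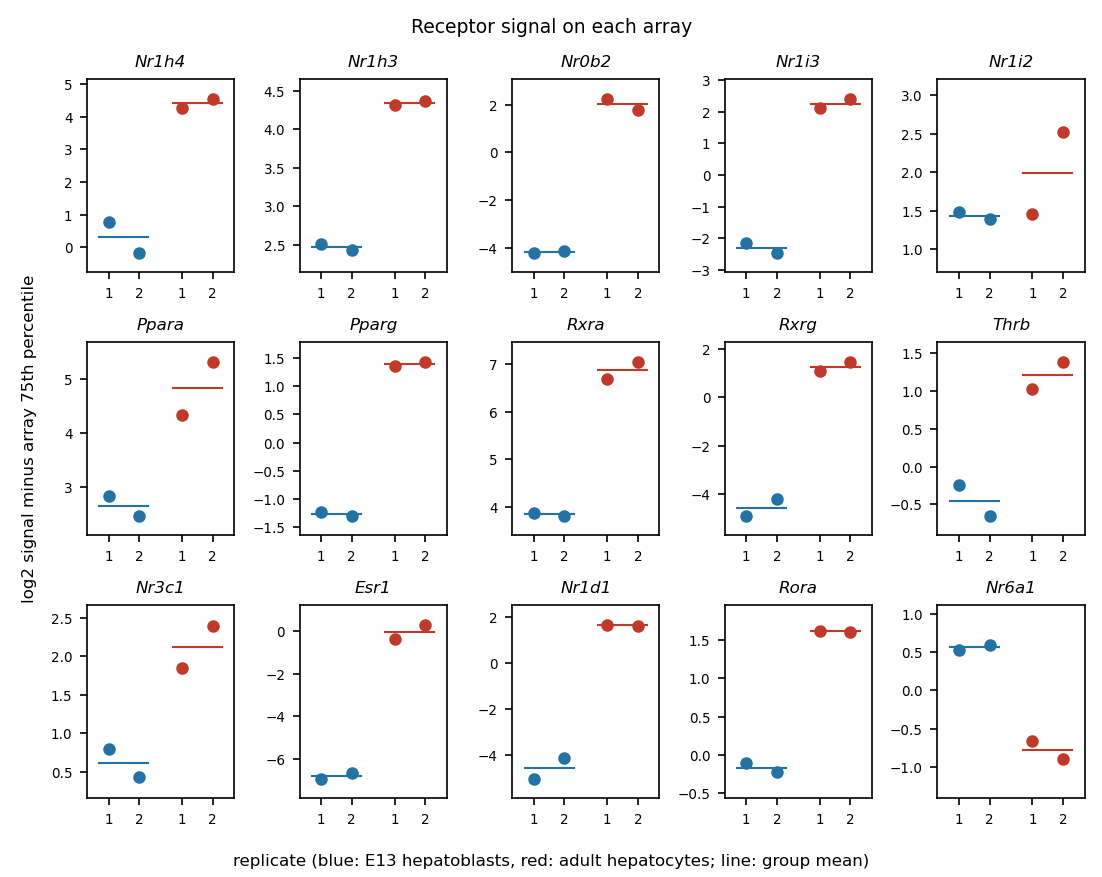
Signal of 15 receptors on each array (vertical axis, log2 signal minus the array's 75th percentile, each panel with its own range; horizontal axis, replicate), E13 hepatoblasts in blue, adult hepatocytes in red, lines at the group means. The adult points lie above the E13 points in all panels but Nr1i2, where adult replicate 1 at 1.45 lies between the E13 points, and Nr6a1, where they lie below.

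The half-site AGGTCA, searched on both strands (its reverse complement is TGACCT), occurred in 14% of all windows and in 11 of the 60 receptor windows (18.3%), which belong to 10 receptors. 4 windows that hold it are shown, 3 of receptors higher in adult cells and 1 of the E13-high Nr6a1. Each is 120 bases long and ends at a start of the gene, with the half-site in capitals on the strand where it was read. They are chr14:18239107-18239226 (minus strand) for Nr1d2, chr2:27709172-27709291 (plus) for the CpG-poor start of Rxra, chr1:167618145-167618264 (plus) for Rxrg and chr2:38784516-38784635 (minus) for Nr6a1.
Nr1d2: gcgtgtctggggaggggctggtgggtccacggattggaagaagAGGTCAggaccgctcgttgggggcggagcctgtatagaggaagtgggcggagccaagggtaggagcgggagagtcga
Rxra: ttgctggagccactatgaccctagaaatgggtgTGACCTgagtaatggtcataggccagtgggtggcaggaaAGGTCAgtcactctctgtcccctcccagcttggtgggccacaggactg
Rxrg: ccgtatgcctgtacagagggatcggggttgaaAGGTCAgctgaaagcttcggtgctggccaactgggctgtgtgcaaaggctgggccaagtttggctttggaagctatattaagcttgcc
Nr6a1: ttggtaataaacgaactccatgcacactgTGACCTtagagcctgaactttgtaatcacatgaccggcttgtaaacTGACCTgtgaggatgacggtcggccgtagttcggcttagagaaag
The half-site began 77 bases before the start of Nr1d2 and 88 before that of Rxrg. Rxra held it at 87 and 48 bases and Nr6a1 at 91 and 45 bases. Rxra, Rxrg and Nr6a1 each have another start, whose window held no half-site. A match is a string of letters and was not tested as a binding site.

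Of 5 receptors for retinoic acid and thyroid hormone tested, 1 was called, Thrb, higher in adult (20%, beside 32.1% of all genes). Thrb encodes the thyroid hormone receptor beta, the main form in liver. It rose from -0.25 and -0.65 in E13 to 1.03 and 1.39 in adult (log2 fold 1.66 ± 0.23, adjusted p = 0.00346), and its 3 tested probes were all called in this direction (log2 folds of 1.61 and above). Thra, the receptor form that prevails in heart and brain, read 2.66 and 2.38 in E13 and 2.06 and 2.01 in adult. Here the E13 arrays were the higher ones, with a log2 fold of -0.48 ± 0.17 that was not called (adjusted p = 0.0577); a second probe was (log2 fold -0.75, adjusted p = 0.0245). Spike-in scaling left Thrb positive and uncalled (0.42, adjusted p = 0.194) and Thra negative and called (-1.72, adjusted p = 7.5e-04). Vdr, the vitamin D receptor, was above background on no array.

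The retinoic acid receptors gave no call. Rarb, itself induced by retinoic acid, read 0.18 and -0.16 in E13 and -2.42 and -0.53 in adult. The adult arrays were both lower but 3.69-fold apart, a wider gap than that of 99.1% of genes, and the log2 fold was -1.48 ± 0.65 (adjusted p = 0.105). It was -2.43 without adult replicate 2 (adjusted p = 0.00471) and -0.54 without adult replicate 1 (adjusted p = 0.114). Mesenchymal cells express Rarb too, and the mesenchymal marker sums above were also higher in E13. Rarg differed by -0.17 ± 0.15 (adjusted p = 0.368), all of its arrays lying between -3.32 and -3.05. Rara was above background in E13 alone, at -4.65 and -4.14, and was not called (adjusted p = 0.136); the adult arrays hold only an upper bound, so no difference is given.

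Retinoid genes were higher in adult cells for 8 of 12 tested and in E13 for 2. Aldh1a1, given above, also makes retinoic acid, and Rdh16, a retinol dehydrogenase, was at least 187.7-fold higher in adult. Bco1, which cleaves beta-carotene to retinal, was higher in E13 by a log2 fold of -3.52. Cyp26b1, a retinoic acid hydroxylase, was not called (2.23, adjusted p = 0.116). Among thyroid hormone genes, 9 of 11 tested were higher in adult, among them Thrsp, a lipogenic protein (at least 705.9-fold), and Slco1a1, a carrier of organic anions and thyroid hormone (at least 156.6-fold). Dio3, which inactivates thyroid hormone, was at least 2.04-fold higher in E13, and the carrier protein Serpina7 was not called (0.81, adjusted p = 0.203). The medians of both lists were 1.85 and 2.26.

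Of the steroid receptors, Nr3c1 and Esr1 rose. Nr3c1 encodes the glucocorticoid receptor, which induces gluconeogenic and amino acid-degrading enzymes in hepatocytes. Nr3c1 read 0.79 and 0.43 in E13 and 1.85 and 2.39 in adult (log2 fold 1.51 ± 0.26, 2.84-fold, adjusted p = 0.00701). Its 4 probes were all called higher in adult, from 0.96 to 1.51, whereas spike-in scaling gave 0.27 (adjusted p = 0.414). Esr1, the estrogen receptor alpha, read -6.92 and -6.66 in E13, below background on both arrays, and -0.37 and 0.30 in adult. The difference was at least 23.5-fold by the bound given above (adjusted p = 1.29e-04). Another Esr1 probe was above background on no array. Normexp background correction gave a smaller fitted log2 fold, 3.03, and 2.60 with quantile normalization added. Both lie under the bound, which is 4.56 as log2. Nr3c2, the mineralocorticoid receptor, was dim at -3.55 and -3.24 in E13 and -2.80 and -2.99 in adult, and its log2 fold of 0.50 ± 0.18 was not called (adjusted p = 0.0683; -0.74 with spike-in scaling). Esr2 and Pgr, the estrogen receptor beta and the progesterone receptor, were above background on no array.

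Glucocorticoid genes were higher in adult for 8 of 14 tested and in E13 for 2 (median 2.56). Tdo2, which opens tryptophan breakdown, was at least 1220-fold higher in adult, and Hsd11b1, which regenerates active glucocorticoid, was higher by 10.12. Serpina6, the corticosteroid-binding globulin, and the metallothionein Mt1 were higher in E13 (log2 folds -3.02 and -1.01). Sgk1, a kinase induced by glucocorticoids, read 3.91 and 1.76 on the adult arrays and was not called (1.46, adjusted p = 0.139). Vitamin D and sex steroid genes were higher in adult for 10 of 14 tested, with the hydroxysteroid dehydrogenases Akr1c6 (8.44) and Hsd3b5 (7.37) among them. Greb1, named for its induction by estrogen in breast cancer cells, was at least 9.9-fold higher in E13, where Esr1 was below background. Cyp17a1, which makes androgen precursors, was not called (0.68, adjusted p = 0.0642), and the list's median was 2.89. Of 10 chaperones that hold steroid receptors in a ligand-ready state, 6 were higher in E13 and 1 in adult (median -0.72). Stip1 (log2 fold -1.40) and Hsp90aa1 (-1.31) were higher in E13, Bag1 was higher in adult (0.56), and Hspa8 was not called (-0.31, adjusted p = 0.142).

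The clock receptors tested were all higher in adult hepatocytes. REV-ERB proteins repress and ROR proteins activate Arntl, the core activator of the circadian clock, through the same DNA elements. Nr1d1, which encodes REV-ERB alpha, read -5.03 and -4.15 in E13, with 1 of 2 arrays above background, and 1.64 and 1.60 in adult. The adult arrays were level with each other, and the fitted log2 fold was 6.21 ± 0.32 (adjusted p = 2.34e-04). The 2 other probes of Nr1d1 were above background on all arrays and gave smaller log2 folds, 2.50 and 1.13, both called. Nr1d2, which encodes REV-ERB beta, read -1.79 and -2.01 in E13 and 0.26 and 1.58 in adult (log2 fold 2.82 ± 0.46, adjusted p = 0.00612). Rora was at -0.10 and -0.23 in E13 and 1.61 and 1.60 in adult, a log2 fold of 1.77 ± 0.14 (adjusted p = 7.54e-04; 0.53 and 0.052 with spike-in scaling), and all 3 of its probes were called. Rorb was above background on no array.

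The adult replicates differed from each other in several clock genes. Nr1d2 was 2.49-fold higher on adult replicate 2 than on replicate 1, a wider gap than in 97.5% of genes, while Nr1d1 differed by 1.03-fold. Dbp, an output activator of the clock, was at 3.20 and 6.23 on the adult arrays and at 0.28 and 0.38 in E13. Arntl went the other way between the adult arrays, from 1.44 to -0.96. Ciart and Tef, 2 other clock output genes, read -3.26 and 1.89 on adult replicate 1 and 0.70 and 3.64 on adult replicate 2. Of 15 clock genes tested, 4 were higher in adult (26.7%, beside 32.1% of all genes) and 1 in E13 (6.67%, beside 32.8%). Their median of 0.23 turned to -1.01 with spike-in scaling. Dbp (4.38) and Bhlhe40, a clock repressor (2.09), were higher in adult, Csnk1e, a kinase acting on PER proteins, was higher in E13 (log2 fold -2.77), and Ciart was not called (2.28, adjusted p = 0.188). Arntl and Tef were named here after their values were seen.

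**Figure D3:**
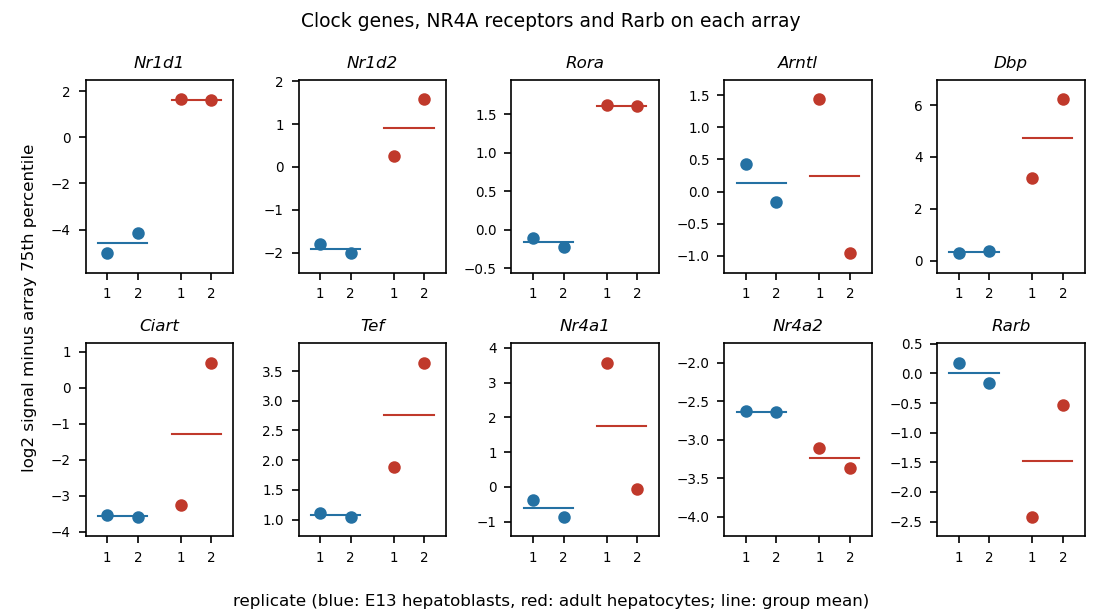
Signal on each array (vertical axis, log2 signal minus the array's 75th percentile, panel-specific range; horizontal axis, replicate) of clock genes, NR4A receptors and Rarb, E13 in blue, adult in red, lines at the group means. The adult replicates are level for Nr1d1 and Rora and far apart for Arntl, Dbp, Ciart, Tef, Nr4a1 and Rarb, with Arntl and Nr4a1 high on replicate 1 and Dbp, Ciart, Tef and Nr1d2 high on replicate 2.

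Of 8 orphan receptors tested, 2 were higher in adult, both estrogen-related receptors, and 1 was higher in E13. These shares, 25% and 12.5%, lay below the 32.1% and 32.8% of all genes. Nr6a1, which encodes GCNF, a repressor of pluripotency genes in the early embryo, was higher in E13, reading 0.53 and 0.60 in E13 and -0.65 and -0.89 in adult. Both adult arrays lay below both E13 arrays, a log2 fold of -1.33 ± 0.16 (2.52-fold, adjusted p = 0.00235), and it was called in the same direction under all 17 alternatives. Several of these reuse the same signals, since Nr6a1 has a single probe, above background on all arrays. Nr2f6 (EAR2) was at 5.60 and 5.70 in E13 and 5.92 and 5.82 in adult, a log2 fold of 0.22 ± 0.15 (adjusted p = 0.243) that became -0.45 with quantile normalization and -1.02 with spike-in scaling. Nr2f2 (COUP-TFII), expressed in vein endothelium, mesenchyme and hepatocytes, read 1.94 and 1.62 in E13 and 2.27 and 3.01 in adult. Its log2 fold of 0.86 ± 0.30 was not called (adjusted p = 0.0596), but was without adult replicate 1 (1.23, adjusted p = 0.0167); it was 0.49 without adult replicate 2 (adjusted p = 0.131) and -0.38 with spike-in scaling. The testicular receptors Nr2c1 and Nr2c2 gave -0.08 and -0.20 (adjusted p = 0.65 and 0.494), and a second Nr2c2 probe was called higher in E13 (log2 fold -1.09). Hnf4g, the relative of Hnf4a found in gut, was above background in E13 alone, at -3.61 and -3.54, and was not called (adjusted p = 0.436), again with no difference given. Nr2e3 and Nr2f1 were above background on no array.

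Estrogen-related receptors work without a known natural ligand and, with the coactivators Ppargc1a and Ppargc1b, drive mitochondrial genes. Esrra read 2.20 and 2.54 in E13 and 2.89 and 3.19 in adult, and Esrrg -2.03 and -1.58 in E13 and -0.82 and -1.13 in adult. The groups did not overlap for either gene. Both were called (log2 fold 0.67 ± 0.20, adjusted p = 0.0399, for Esrra, and 0.83 ± 0.23, adjusted p = 0.0301, for Esrrg). These calls were lost without E13 replicate 1 (0.50 and 0.60, adjusted p = 0.181 and 0.132); Esrra also lost its call without E13 replicate 2 or adult replicate 2 (0.84 and 0.52, adjusted p = 0.0643 and 0.121), Esrrg without adult replicate 1 (0.67, adjusted p = 0.1), and spike-in scaling gave -0.57 and -0.41. Esrrb was above background on no array. Of 13 mitochondrial genes linked to these receptors, 6 were higher in adult and 2 in E13, with a median of 0.37 that was -0.02 with quantile normalization and -0.86 with spike-in scaling. The succinate dehydrogenase subunits Sdhb (1.58) and Sdha (1.46) were higher in adult, Ucp2, a mitochondrial carrier, and the transcription factor Nrf1 were higher in E13 (log2 folds -3.34 and -1.29), and Gabpa was not called (0.37, adjusted p = 0.232).

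NR4A receptors are immediate early genes, transcribed within minutes of many stimuli and thought to act without a ligand. Nr4a1 read -0.38 and -0.86 in E13 and 3.58 and -0.05 in adult. Adult replicate 1 stood alone, 12.4-fold above adult replicate 2, a wider gap than in 99.9% of genes. The log2 fold of 2.38 ± 1.22 was not called (adjusted p = 0.148), passed the test without adult replicate 2 (4.198, adjusted p = 0.00249) and was 0.57 without adult replicate 1. Nr4a2 read -2.63 and -2.64 in E13 and -3.10 and -3.36 in adult, where 1 of 2 arrays was above background. It was called higher in E13 (log2 fold -0.60 ± 0.16, adjusted p = 0.0297), lost the call without either E13 replicate or adult replicate 2 (adjusted p = 0.0726 to 0.125), and turned to 0.22 with normexp background correction. Nr4a3 was above background on no array. Sgk1, given above, and Dusp1, another gene induced early by stimuli, were also higher on adult replicate 1; Dusp1 read 3.13 there and 1.83 on adult replicate 2, and was looked up after the value of Nr4a1 had been seen.

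The promoters of the 3 NR4A genes shared a sequence feature that the array did not measure. The motif TGACG, the half-site of the cAMP response element, was searched on both strands (its reverse complement is CGTCA) and occurred in 17.8% of all windows and 12 of 60 receptor windows (20%). Nr4a1, Nr4a2 and Nr4a3 each held 4 copies, and 45 of the 32851 windows (0.137%) held at least 4. The motif contains a CG, and these 3 windows held 34, 44 and 18 CpG, where the median of all windows was 6. The 0.137% is therefore no share among windows as rich in CpG, which was not counted. The full element TGACGTCA occurred in 1.55% of all windows and in no receptor window. The whole 250 bases before each start are shown with TGACG in capitals, at chr15:101266596-101266845 (plus strand) for Nr4a1, chr2:57124004-57124253 (minus strand) for Nr4a2 and chr4:48045055-48045304 (plus strand) for Nr4a3.
Nr4a1: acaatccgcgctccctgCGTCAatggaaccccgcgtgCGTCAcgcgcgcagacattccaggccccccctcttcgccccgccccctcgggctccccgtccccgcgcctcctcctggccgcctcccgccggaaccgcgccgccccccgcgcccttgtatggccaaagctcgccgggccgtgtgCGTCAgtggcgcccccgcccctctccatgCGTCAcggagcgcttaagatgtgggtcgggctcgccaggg
Nr4a2: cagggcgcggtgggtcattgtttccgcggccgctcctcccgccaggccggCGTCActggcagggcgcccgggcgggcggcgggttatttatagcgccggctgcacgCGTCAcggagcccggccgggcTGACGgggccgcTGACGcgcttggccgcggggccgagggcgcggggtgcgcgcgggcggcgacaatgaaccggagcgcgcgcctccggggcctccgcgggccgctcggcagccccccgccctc
Nr4a3: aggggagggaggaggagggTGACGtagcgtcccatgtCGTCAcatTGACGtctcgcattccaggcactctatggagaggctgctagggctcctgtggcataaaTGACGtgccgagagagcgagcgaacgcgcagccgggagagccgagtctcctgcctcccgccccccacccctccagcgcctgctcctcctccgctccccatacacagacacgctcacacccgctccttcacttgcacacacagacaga
The copies nearest the start lay 40 bases before it in Nr4a1, 111 in Nr4a2 and 147 in Nr4a3. The motif was counted after the values of these genes were known, and the 3 receptors did not share a pattern on the arrays.

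Several receptors could be read from more than one probe. Of 17 receptors with several probes, 11 had several that could be tested. None had probes called in both directions, and in 2, Thra and Nr2c2, some probes were called and others not. All 64 probes with a RefSeq accession matched a current RefSeq gene of the same symbol. Sizes did differ between probes, most for Nr1d1, whose 3 probes lay on mm9 chromosome 11 between 98630526 and 98636494 on the minus strand. Thra lies beside it on the plus strand, with its probes between 98625642 and 98626415. The exon or untranslated region that each probe covers was not analysed here.

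**Figure D4:**
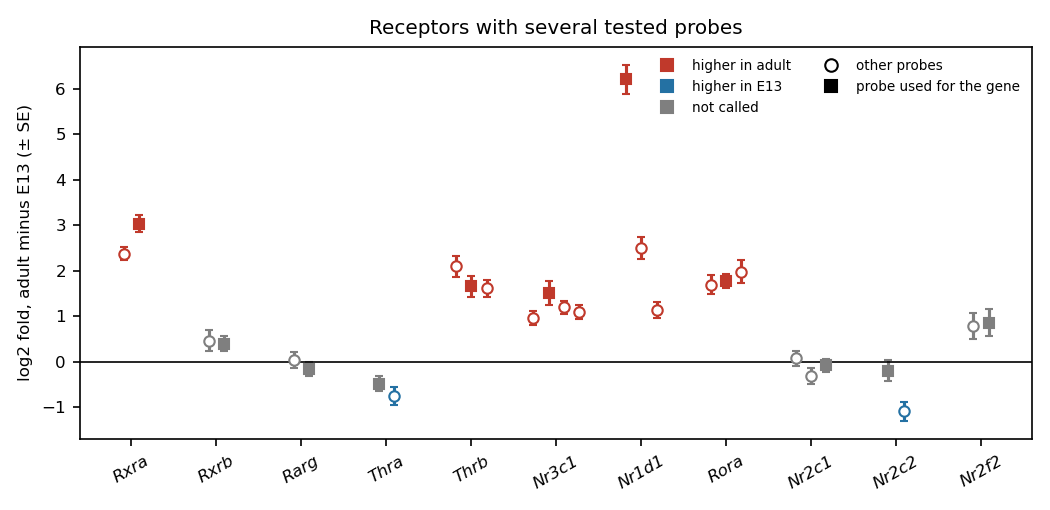
Log2 fold (vertical axis, adult minus E13, bars ± SE) of every tested probe of the 11 receptors with several tested probes (horizontal axis); squares mark the probe that represents the gene and circles the other probes, red if called higher in adult, blue if higher in E13 and grey if neither. The 3 probes of Nr1d1 spread from 1.13 to 6.21, and the second probes of Thra and Nr2c2 are the blue circles at -0.75 and -1.09.

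Coregulators carry the signal from receptor to chromatin. Of 22 tested, 4 were higher in adult (18.2%, beside 32.1% of all genes), 6 in E13 (27.3%, beside 32.8%) and 12 in neither, with a median of -0.31. Ppargc1b, a coactivator of estrogen-related receptors and of lipid synthesis genes, read -1.35 and -1.13 in E13 and 1.53 and 2.61 in adult (log2 fold 3.31 ± 0.39, adjusted p = 0.00221). Ncoa1, a steroid receptor coactivator, was higher in adult by 0.82. Prmt1, an arginine methyltransferase, and Kdm1a, a lysine demethylase, were higher in E13 (log2 folds -2.47 and -1.63). Ncoa4 was not called (0.47, adjusted p = 0.0862).

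**Figure D5:**
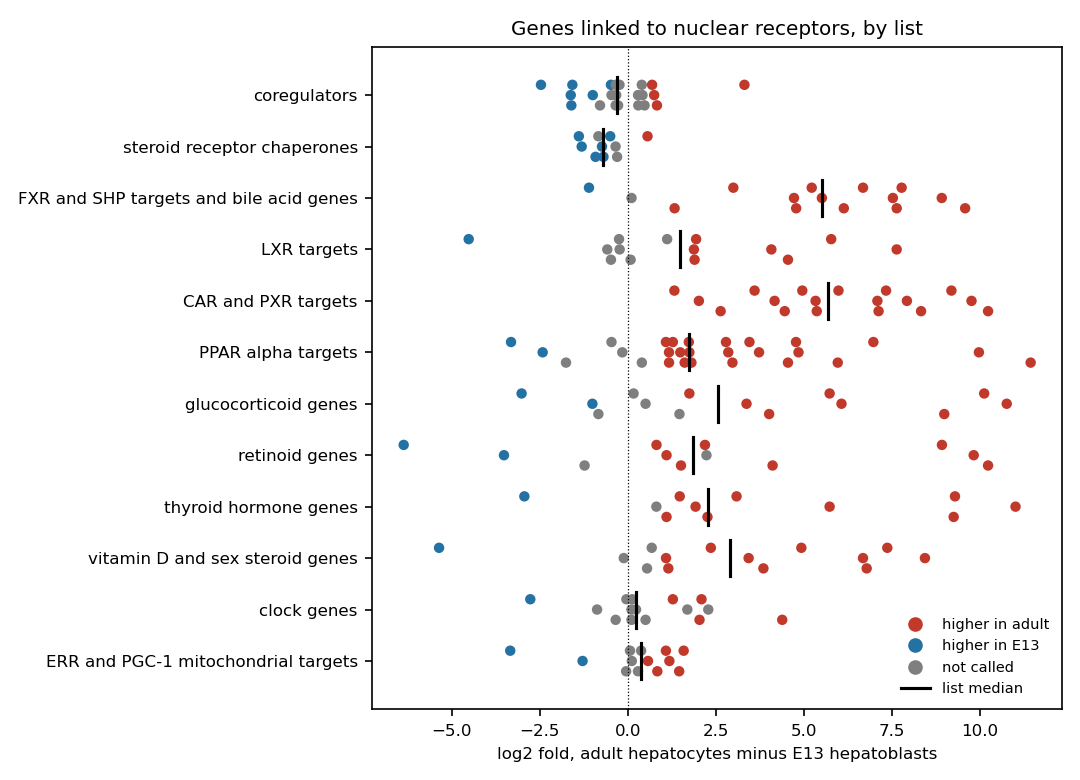
Log2 fold (horizontal axis, adult minus E13) of each tested gene in 12 lists of genes linked to the receptors (vertical axis), red if called higher in adult, blue if higher in E13, grey if neither, with black lines at the list medians. The medians run from -0.72 for chaperones and -0.31 for coregulators to 5.51 for FXR and SHP genes and 5.67 for targets of CAR and PXR.

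Of the 44 receptors, 10 were not tested. Nr0b1, Vdr, Esr2, Pgr, Rorb, Nr2e3, Nr2f1, Esrrb and Nr4a3 were above background on no array, and Ppard on 1. This says that their signals could not be told from background with these probes, not that the transcripts were absent.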

How the data were processed

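Cy3-labelled RNA of E13 hepatoblasts (n = 2) and adult hepatocytes (n = 2), grouped by the cell type in the labels, was measured on 4 arrays. Per the file headers, the arrays shared 1 slide and 1 scan time. The intensity values were made by the authors with Agilent Feature Extraction 10.7.3.1, per the file headers, with local background subtracted and arrays left unscaled. In their processed table the authors deposited log2 values, which matched these intensities on the log2 scale less each array's 75th percentile (r = 1).

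Replicate spots were averaged as log2 signals and scaled to the 75th percentile over all probes, with 1639 control spots and 18 outlier probes left out. R 4.3.3, limma 3.58.1 and package data.table (version 1.17.8) were used, with moderated statistics from lmFit and eBayes on 2.55 prior and 2 residual degrees of freedom, and Benjamini-Hochberg adjustment over 16421 genes and a threshold of 0.05. The median SE was 0.182, and precision is limited by the number of arrays. Where a called gene was not above background on either array of 1 group, the bound described in the report replaces the fold; where an uncalled receptor was not, no difference is given in the report. Medians use fitted folds.

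The members and the gene lists were chosen with earlier results of these data known. Every receptor is accounted for. In each list the 2 called genes per direction with the largest fitted fold and the first uncalled gene in list order are named, except 1 gene that is not reported here; Dusp1, Arntl and Tef were added after their values were seen. Of each marker list the genes with the highest and the lowest mean signal were eligible. Tried as alternatives were quantile normalization, normexp (offset 50), the 2 combined, scaling to the median of probes above background on all arrays, spike-in scaling, the deposited values, no filter, above background on all arrays, the mean of probes, single probes, robust eBayes with a trend, a threshold of 2-fold, leaving out each array and a replicate block. Promoter windows came from RefSeq GRCm38.p6, while coordinates of probes come from the deposited array data (mm9).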

Additional observations from a re-analysis of the deposited data

How the results depend on the processing

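With 2 arrays per group, the fits without 1 array take the spread from the other group and assume that the lone array varies like it. Scaling to spike-in probes lowered every log2 fold and gave 2005 genes higher in adult and 11293 in E13, and 10 and 14 receptors. Under it these log2 folds turned negative: Nr1h2 -0.84, Nr1i2 -0.68, Nr5a2 -0.46, Nr5a1 -0.39, Rxrb -0.84, Rara -0.68, Nr3c2 -0.74, Nr2f2 -0.38, Nr2f6 -1.02, Esrra -0.57, Esrrg -0.41, and the medians of clock genes (-1.01) and of mitochondrial genes (-0.86). Without a filter on dim probes 14614 genes were called higher in adult. Of all calls, 49.5% were higher in adult as reported, 59.5% with normexp, 15.1% with spike-in scaling and 72.7% without a filter. Quantile normalization turned Nr2f6 to -0.45 (-0.46 together with normexp) and the mitochondrial median to -0.017. Normexp turned Rarg to 0.40, Nr2c2 to 0.078, Hnf4g to 0.31 and Nr4a2 to 0.22. Over the fits without 1 array, Nr2c2 ran from -0.43 to 0.030 (positive without adult replicate 1) and Hnf4g from -1.21 to 0.25 (positive without adult replicate 2). The values of Rara and Hnf4g are fitted and no measured differences, their adult arrays being below background. The cause of these changes was not tested.

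Receptors called higher in E13 numbered 4 with the mean of a gene's probes (Thra and Nr2c2 added), 1 at 2-fold, and 1 to 3 over the fits without 1 array (1 without either E13 replicate, 3 without adult replicate 1). Those higher in adult numbered 14 to 18 over these fits. The deviations of same-numbered arrays from their group means correlated at -0.156 over genes. With 2 arrays per group, this weak value cannot decide whether the numbers pair the samples. The replicate block left 1 receptor called higher in E13 and 18 in adult (17 of them called without it). It lost Nr4a2 and Esrrg and called Nr4a1 (2.38, adjusted p = 0.0473). A crossed replicate block, chosen after seeing the data, called 19 receptors higher in adult and 3 in E13. For a receptor with a single probe, above background on all arrays, several of the 17 alternatives reuse the same signals. Nr1h4, Nr1h3, Nr1i3, Nr0b2, Pparg, Rxra, Nr1d1, Nr1d2 and Nr6a1 kept direction and call under all 17 alternatives. Rxrg and Esr1 did so under 16, but the alternative that asks for signal above background on all arrays removed both. Rxrg and Esr1 had passed the filter through the adult arrays, where they are high, so the 16 do not bear on that point. The probe used for Nr1d1 had passed in the same way, and this alternative removed it too. Nr1d1 was then read from another probe, with a log2 fold of 2.50 in place of 6.21. The alternatives that kept the first probe of Nr1d1 likewise do not bear on that point. The single slide and scan time left no block to fit for either, and 0 saturated probes left nothing to remove.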
